A study of Mus musculus with 12 samples.

Results

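The enzymes that build triglyceride from glycerol phosphate were followed by their RNA in the livers of 12 mice. They comprised 10 genes chosen by symbol from the 55401 genes of the deposited tables: Gpam, Agpat2, Agpat3, Lpin1, Lpin2, Lpin3, Dgat1, Dgat2, Mogat1 and Mogat2. No measured value entered the choice. All 10 had a row and all 10 passed the filter on low counts. With both genotypes averaged, Agpat3 and Gpam were called higher and Lpin1 lower on the methionine- and choline-deficient (MCD) diet. That comparison called 14.9% of all genes tested. The Gpam call lay close to the threshold (edgeR adjusted p = 0.0489). The fall of Lpin1 also passed the test in flox livers alone, and was not seen in cre livers (log2 fold change 0.10). The difference between the genotypes in this diet effect was not called (edgeR adjusted p = 0.361).

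The mice were male C57BL/6, labelled 6 to 8 weeks old, and homozygous for a loxP-flanked Lpcat3 allele. Mice labelled flox carried no cre (LPCAT3flox/flox), and mice labelled cre carried it (LPCAT3flox/flox-cre). Each genotype received a control diet or the MCD diet, which the labels give for 8 weeks as a model of steatohepatitis, and each of the 4 groups held 3 livers, all taken after a 12 h fast. The labels name neither the promoter that drives cre nor its target cell, although the group label abbreviates the cre mice as LKO, and both genotypes carry the floxed allele. Lpcat3 encodes lysophosphatidylcholine acyltransferase 3, an enzyme of phospholipid remodelling. MCD feeding limits the making of phosphatidylcholine and the export of lipoprotein, and triglyceride accumulates in the hepatocytes.

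In the glycerol phosphate pathway an acyltransferase of the GPAT family, here Gpam on the outer mitochondrial membrane, adds the first fatty acid to give lysophosphatidate. The AGPAT enzymes add another to give phosphatidate, and the lipins remove the phosphate to give diacylglycerol. The DGAT enzymes add the last fatty acid. The MOGAT enzymes reach diacylglycerol by another route, from monoacylglycerol, which is best known from the small intestine.

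Sequences are shown for Lpin1, the called enzyme with the largest diet effect, and for Gpam, which catalyses the first step. The longer and shorter coding forms of Lpin1 are those with a consensus coding sequence (CCDS) entry. They differ by 1 exon of 99 bases, exon 6 of the longer form, at chr12:16571164-16571262 on the minus strand of GRCm38. The longer form encodes 924 codons and the shorter form 891, the stop not counted. The exon is printed in capitals with 30 transcript bases on either side in lower case, and in the shorter form the flanks are joined directly.
Lpin1 exon 6: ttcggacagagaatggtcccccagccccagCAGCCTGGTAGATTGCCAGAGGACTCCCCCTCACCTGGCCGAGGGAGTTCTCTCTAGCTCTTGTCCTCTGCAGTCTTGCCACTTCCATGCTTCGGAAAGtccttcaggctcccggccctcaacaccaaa

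The next lines give the 250 bases before a RefSeq transcript start (GRCm38.p6, printed 5′ to 3′ on the minus strand, which both genes use). The Lpin1 window, chr12:16610967-16611216, lies before an upstream start that 1 library used for most of its estimated Lpin1 transcripts. The Gpam window, chr19:55127239-55127488, ends 22 bases from the start of the leading Gpam transcript, and its capitals mark CCAAT read on the opposite strand, 74 bases before the RefSeq start.
Lpin1 upstream window: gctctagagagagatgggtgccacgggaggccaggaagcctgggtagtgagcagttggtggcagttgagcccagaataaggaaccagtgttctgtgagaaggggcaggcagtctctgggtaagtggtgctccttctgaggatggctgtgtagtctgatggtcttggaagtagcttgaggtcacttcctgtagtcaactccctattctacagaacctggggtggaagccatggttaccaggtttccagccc
Gpam window: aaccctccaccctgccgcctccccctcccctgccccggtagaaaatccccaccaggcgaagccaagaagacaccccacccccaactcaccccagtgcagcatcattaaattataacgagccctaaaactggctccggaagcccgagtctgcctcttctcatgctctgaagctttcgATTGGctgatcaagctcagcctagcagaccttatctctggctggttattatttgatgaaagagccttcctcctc

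The motifs searched on both strands of each 300-base window, 250 bases before to 50 after the start, were CCAAT (bound by NF-Y), CACGTG (an E-box), TCACNCCAC (a sterol response element), a PPAR response element and TGACGTCA (a cAMP response element). None of them overlapped another at the match in Gpam. CCAAT was present in 37.4% of all 32817 promoter windows of the RefSeq table, CACGTG in 7.15%, TCACNCCAC in 1.24%, the PPAR response element in 0.0396% and TGACGTCA in 1.79%. Windows were found for 7 of the 10 genes, and 5 of their 11 windows held a match. The Lpin1 upstream window and the single windows of Agpat2 and Agpat3 held no match, which says only that these letters are not in these windows. Dgat1, Dgat2 and Mogat2 had no window.

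Depth ran from 40883986 to 65516723 estimated counts a library, over 17631 to 19988 genes with a value above 0, with 7.42% to 53.9% of the counts on ribosomal RNA rows and 10.7% to 36.1% on the mitochondrial genome. Lpcat3, the floxed gene, stood at 41.4 to 63.4 normalised CPM (counts scaled to library size) in the 6 flox libraries, while 5 cre libraries held 16.1 to 23.3 CPM. The library labelled cre MCD 3 held 56.1 CPM, a flox level that goes against its label. In edgeR's quasi-likelihood test Lpcat3 had an adjusted p of 0.567 for cre against flox on the control diet and 0.657 on MCD. Flox control 3 also stood apart from its group, by its values for several genes below and not by its label. Values without 1 or both of these libraries are given beside the results below. Flox control 3 was singled out by those same values, so a call gained without it is no separate support. Flox control 1 held the 53.9% of ribosomal counts, where the next library held 27.1%, and had the lowest scaling factor, 0.684. The mitochondrial share was 23.4% to 36.1% in cre control and 10.7% to 19.0% in cre MCD livers, without overlap. The part of these shares in the results was not tested, and leaving those counts out is described below. Hepatocyte markers were the most abundant of the marker lists, with summed levels of 46590 to 103800 CPM over the 8 genes. Nothing in the labels says how the mice of a group relate to each other, so p-values measure the spread between these 12 livers.

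Per unit of length, as FPKM (fragments scaled to length and library size), the 10 genes were ranked among themselves only. At the first step Gpat4, outside the 10, had a mean of 11.8 FPKM in flox control livers, beside 11.3 FPKM for Gpam. The FPKM of Dgat2 had a median of 73.9 over the 12 libraries, that of Agpat2 70.3 and that of Lpin2 41.3, and these genes held the first 3 ranks of the 10 in every library. Agpat3 followed with a median of 30.7 FPKM at rank 4 or 5. Lpin1 (15.7 FPKM), Gpam (13.8 FPKM) and Dgat1 (11.5 FPKM) shared ranks 4 to 7, and their order changed between libraries. Lpin3 (0.559 FPKM), Mogat1 (0.484 FPKM) and Mogat2 (0.0749 FPKM) filled ranks 8 to 10 throughout.

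**Figure D1:**
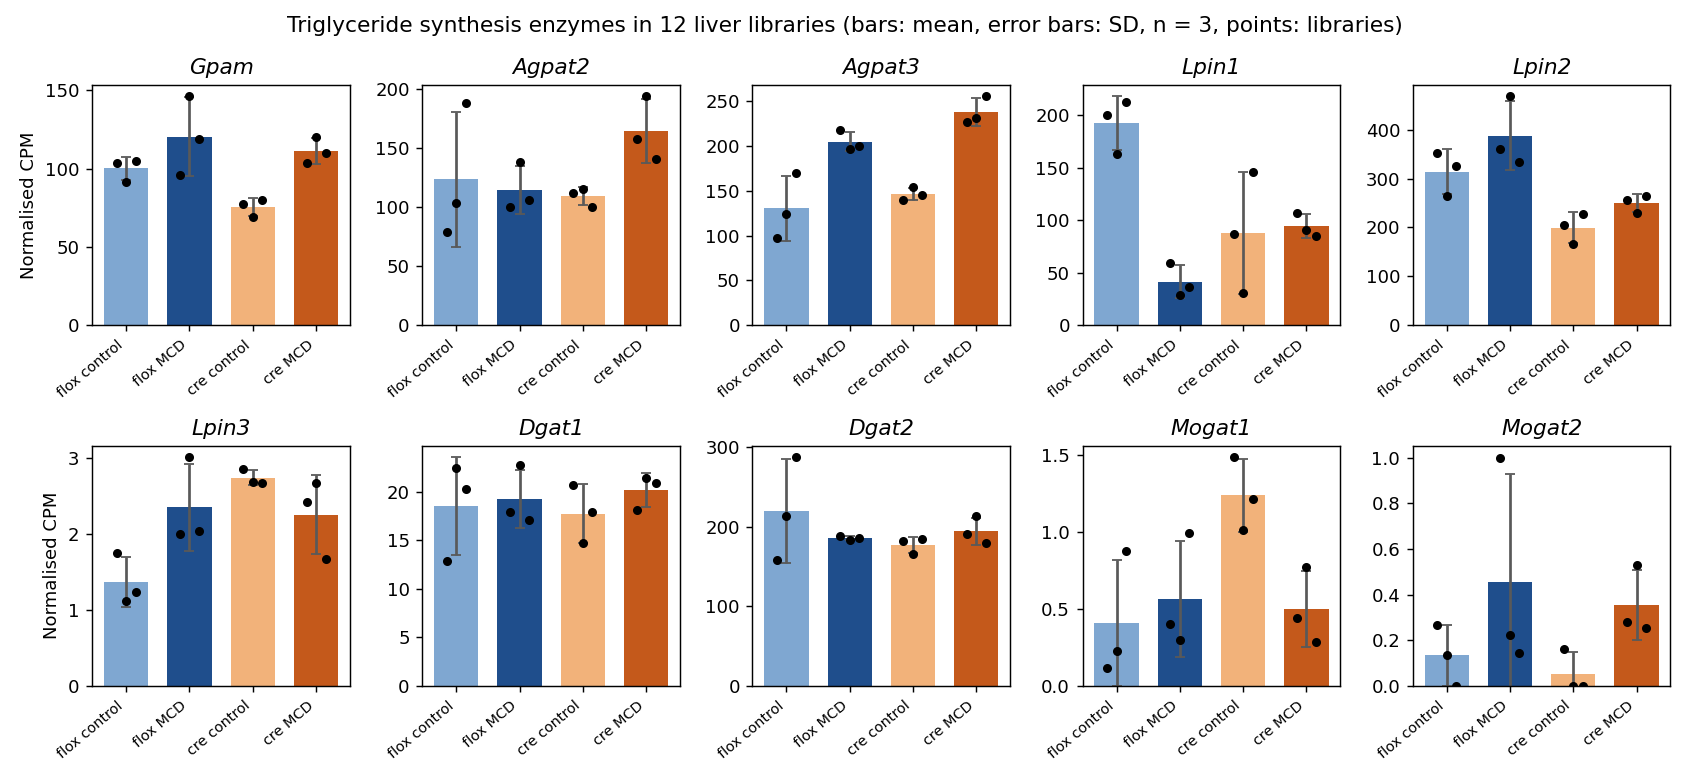
Normalised CPM (vertical axis, its own scale for each gene, starting at 0) of the 10 enzymes in the 4 groups, with bars for the mean, error bars for the SD (n = 3) and points for the libraries. Agpat3 lies higher on MCD in both genotypes, Lpin1 is lowest in flox MCD (28.8 to 58.9 CPM), and Lpin2 lies lower in cre than in flox on either diet.

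Expression of 1 gene across libraries is given below as normalised CPM, and a gene was called where edgeR's adjusted p over the 16523 genes tested was under 0.05. On MCD against the control diet 1 of the 10 genes was called in flox livers, Lpin1, lower, beside 5.27% of all genes, 2.64% higher and 2.63% lower. In cre livers 0 of 10 were called by edgeR beside 6.77% of all genes, 3.73% higher and 3.04% lower, and 2 of 10 at an unadjusted p under 0.05 beside 24.9%. DESeq2 called 2 of 10 in cre livers. Over all alternative fits, DESeq2 among them, the calls over all genes ran from 319 to 2195 in cre livers. The number of DESeq2 alone is not given, so its 2 calls are no result about the enzymes. Averaged over the genotypes 2 were called higher and 1 lower, beside 14.9% of all genes, 8.03% higher and 6.92% lower. Counting libraries without overlap, MCD lay above the control diet for 2 genes and below for 1 in flox livers, where 24.1% of all genes did not overlap. In cre livers it lay above for 5 genes and below for 2, where 31.1% of all genes did not overlap. The 2 below were Lpin3 and Mogat1, and both overlapped between the diets in FPKM. The 5 above include Mogat2, whose counts were low. The median log2 fold change of the 10 genes was 0.28 in flox and 0.25 in cre livers, where the median of all genes was 0.01 and -0.01. The medians of the 10 include Mogat1 and Mogat2, whose counts were low. These bulk values do not tell fewer cells of a type from less RNA per cell.

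**Figure D2:**
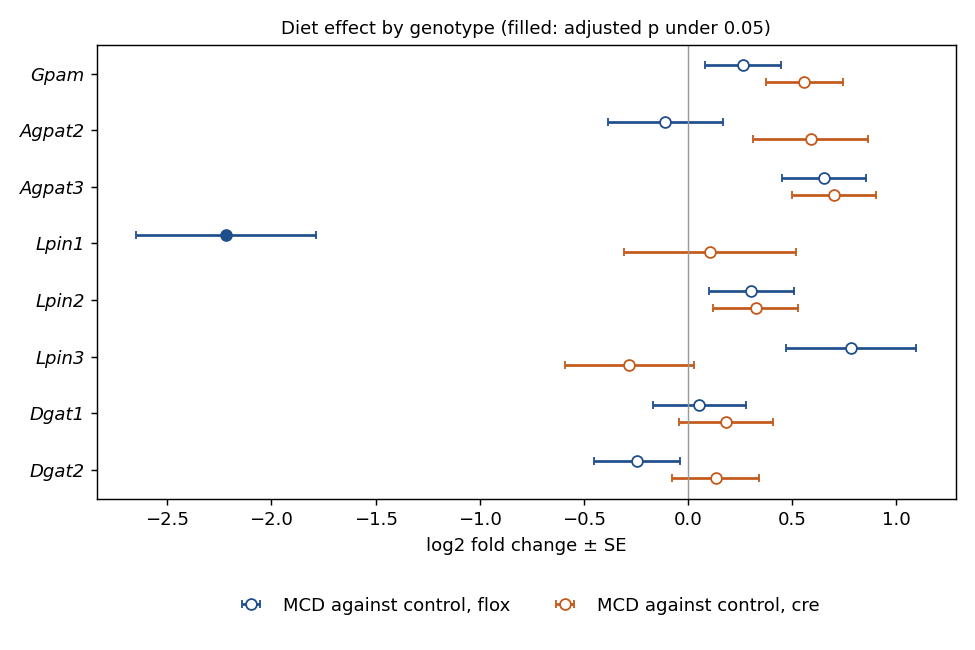
Log2 fold change for MCD against control diet (horizontal axis, ± SE) of 8 enzymes in flox (blue) and cre (orange) livers, with filled points where edgeR's adjusted p was under 0.05; Mogat1 and Mogat2 are left out because of their low counts. The single filled point is Lpin1 in flox livers at -2.22, and the values of Agpat3 in the genotypes lie next to each other at 0.65 and 0.70.

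Gpam, of the first step, rose on MCD when the genotypes were averaged. Gpam (ENSMUSG00000024978, chromosome 19, 55067268 to 55127238) was measured at 104, 91.6 and 105 CPM in flox control livers and at 95.8, 146 and 119 CPM in flox MCD livers. In cre livers it was at 77.3, 69.3 and 80.1 CPM on the control diet and at 104, 120 and 110 CPM on MCD. The flox groups overlapped, and every cre library on MCD was above every cre control library. The log2 fold change averaged over genotypes was 0.41 ± 0.13 (SE), with an adjusted p of 0.0489 from edgeR's quasi-likelihood test. It was 0.26 ± 0.18 in flox livers (adjusted p = 0.509) and 0.56 ± 0.18 in cre livers (adjusted p = 0.0831), and these did not differ by the test of the difference (0.30 ± 0.26, adjusted p = 0.753). The averaged call lies close to the threshold. It was lost when any 1 of 9 libraries was left out, all but flox control 3, flox MCD 1 and cre MCD 1, with log2 values of 0.33 to 0.48 and adjusted p-values of 0.0357 to 0.122 over the 12 fits. DESeq2's size factors (adjusted p = 0.0531) and testing with no filter (adjusted p = 0.0714) also ended it. Gpat4, an enzyme of the same step in the endoplasmic reticulum, had a mean of 11.8 FPKM in flox control livers and an averaged diet value of 0.03 ± 0.21 (edgeR adjusted p = 0.939).

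The next step is shared by Agpat2, whose loss causes lipodystrophy in humans and mice, and Agpat3, which also makes phospholipids rich in polyunsaturated chains. Agpat3 (ENSMUSG00000001211, chromosome 10, 78269178 to 78352489) was at 97.6, 124 and 170 CPM in flox control livers and at 217, 197 and 200 CPM in flox MCD livers. In cre livers it was at 140, 154 and 145 CPM on the control diet and at 227, 231 and 256 CPM on MCD. All 6 MCD libraries were above all 6 control libraries. No other of the 10 genes was higher without overlap in both genotypes, which held for 5.14% of all genes tested. Averaged over genotypes Agpat3 rose by a log2 fold change of 0.68 ± 0.14 (SE, edgeR adjusted p = 0.00656), and it was also called without any 1 library (adjusted p of 0.000691 to 0.0225) and in 11 of the 12 other settings. Its size of 0.68 ended the call where a log2 fold change of at least 1 was also required. Within a genotype the increase was 0.65 ± 0.20 in flox (adjusted p = 0.0827) and 0.70 ± 0.20 in cre livers (adjusted p = 0.0527), neither of which passed. Without flox control 3, the highest of the flox control livers, these were 0.89 (adjusted p = 0.0115) and 0.70 (adjusted p = 0.0144). In cre livers Agpat3 also passed without flox control 1 or without cre MCD 1, within 0.65 to 0.74 for the 12 fits that leave out 1 library.

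Agpat2 (ENSMUSG00000026922, chromosome 2, 26593057 to 26604417), the most abundant of the pair per length, did not follow. Its levels were 79.3, 104 and 188 CPM in flox control, 99.8, 138 and 106 CPM in flox MCD, 112, 115 and 100 CPM in cre control and 158, 194 and 141 CPM in cre MCD livers. The cre libraries on MCD were above every other library except flox control 3, and the flox groups overlapped. No test passed: the log2 fold change on MCD was -0.11 ± 0.27 in flox livers (edgeR adjusted p = 0.896) and 0.59 ± 0.28 in cre livers (adjusted p = 0.203). The flox value turns to 0.33 without flox control 3 (adjusted p = 0.388). The averaged value of 0.24 passed without that library (0.46, adjusted p = 0.0361). As a share of the summed Agpat2 and Agpat3 FPKM, which does not depend on the scaling of a library, Agpat3 took 21.4% to 26.8% in flox control and 27.6% to 39.7% in flox MCD livers. In cre livers the shares overlapped, at 25.6% to 31.2% on the control diet and 23.8% to 33.3% on MCD.

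The lipin step held the largest diet effect among the called enzymes, the fall of Lpin1 in flox livers. Lpin1 encodes lipin 1, the phosphatidate phosphatase that is mutated in the fatty liver dystrophy mouse and that also acts in the nucleus as a coactivator of fatty acid oxidation genes in mouse liver. Lpin1 (ENSMUSG00000020593, chromosome 12, 16535669 to 16646966) was at 200.3, 163 and 213 CPM in flox control livers and at 58.9, 28.8 and 36.2 CPM in flox MCD livers. Every flox MCD library was below every flox control library. Among cre livers it was at 86.3, 30.4 and 146 CPM on the control diet and at 107, 90.4 and 85.0 CPM on MCD, where the groups overlapped. The cre control livers were the most spread, with a mean of 87.6 ± 57.8 CPM (SD, n = 3).

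The log2 fold change of Lpin1 on MCD was -2.22 ± 0.43 (SE) in flox livers, with an edgeR adjusted p of 0.00862. It passed without any 1 of the 12 libraries (-2.56 to -2.01, adjusted p of 0.00106 to 0.0488) and in 12 of the 13 other fits. In the remaining fit, log2(FPKM + 1) with no filter, it was -1.56 with an adjusted p of 0.0806. In cre livers it was 0.10 ± 0.41 (adjusted p = 0.91), and without cre control 2 it turned to -0.30 (adjusted p = 0.629). The diet effects differed by 2.32 ± 0.59 between the genotypes. This difference was not called by edgeR over all genes (adjusted p = 0.361, unadjusted p = 0.00156) and was called by DESeq2 (2.36, adjusted p = 0.0166), and the adjusted p of all other fits lay between 0.143 and 0.711. The average over genotypes, -1.06 ± 0.29, was called (adjusted p = 0.0289). That call was lost in turn without cre control 1, cre control 3, flox MCD 2, flox MCD 3, cre MCD 2 and then the library with cre MCD 3 as its label, with values of -1.27 to -0.77 over the 12 fits, without both libraries that stood apart (-0.98, adjusted p = 0.0651), and on the FPKM scale (-0.46 with log2(FPKM + 1), adjusted p = 0.239). The log2(FPKM + 1) scale moved the median of all genes upward by 0.36 in this average.

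Cell type markers moved with the diet beside these values. Of 8 macrophage markers 6 were called higher on MCD in flox livers and 1 in cre livers, with summed levels of 79.4 to 117 CPM in flox control, 136 to 330 CPM in flox MCD, 79.1 to 90.8 CPM in cre control and 67.8 to 140 CPM in cre MCD livers. Of 8 stellate cell markers 2 were called higher in flox and 1 in cre livers, with sums of 167 to 214 CPM, 349 to 439 CPM, 168 to 195 CPM and 232 to 350.0 CPM in the same order. The 8 hepatocyte markers summed to 57070 to 103800 CPM in flox control and 46590 to 66530 CPM in flox MCD livers, and to 66360 to 88190 CPM in cre control and 88010 to 96870 CPM in cre MCD livers, with 0 of 8 called higher. Of 8 cholangiocyte markers 0 were called higher in flox and 1 in cre livers. Their sums were 46.3 to 67.4 CPM in flox control, 83.3 to 145.6 CPM in flox MCD, 34.8 to 77.8 CPM in cre control and 87.4 to 136.0 CPM in cre MCD livers, without overlap of the diets in either genotype. Of 8 endothelial markers 0 were called higher in flox and 1 in cre livers, with sums of 92.4 to 109.6 CPM, 87.5 to 104.3 CPM, 97.5 to 100.9 CPM and 113 to 122 CPM in the same order. T and B cell markers summed to 1.16 to 4.03 CPM over all groups, with 0 of 8 called higher. The part of these cell types in the diet effects was not tested. Leaving out the ribosomal and mitochondrial rows kept the same 3 averaged calls.

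Lpin2 made up most of the lipin RNA in each library. Its product, lipin 2, is the more abundant lipin of the liver. Lpin2 (ENSMUSG00000024052, chromosome 17, 71182560 to 71249817) was at 352, 264 and 326 CPM in flox control and 361, 468 and 334 CPM in flox MCD livers. The cre livers held 205, 166 and 228 CPM on the control diet and 256, 230.0 and 265 CPM on MCD. They were below the flox livers on each diet with no overlap, which held for 0.418% of all genes tested. Set against flox, the log2 fold change in cre livers was -0.65 ± 0.20 with control diet (edgeR adjusted p = 0.645), -0.63 ± 0.20 on MCD (adjusted p = 0.387) and -0.64 ± 0.14 averaged over diets (adjusted p = 0.295, unadjusted p = 0.000589). None of these was called by edgeR. DESeq2 called the averaged value (-0.65, adjusted p = 0.0023), and the adjusted p of all other fits lay between 0.143 and 0.717. The diet values of Lpin2 were 0.30 ± 0.20 in flox (adjusted p = 0.485) and 0.33 ± 0.20 in cre livers (adjusted p = 0.35).

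Lpin3 (ENSMUSG00000027412, chromosome 2, 160880670 to 160906002), the scarcest lipin in liver, was covered by 49 to 214 estimated counts a library. It was at 1.75, 1.12 and 1.23 CPM in flox control, 2.00, 3.01 and 2.04 CPM in flox MCD, 2.85, 2.69 and 2.68 CPM in cre control and 2.41, 2.68 and 1.67 CPM in cre MCD livers. In flox livers every MCD library was above every control library. In cre livers the MCD libraries were lower, but the closest libraries of the diets were nearly equal, at 2.67635 CPM on the control diet and 2.67628 CPM on MCD. On the FPKM scale the cre groups overlapped, at 0.512 to 0.612 FPKM on the control diet and 0.461 to 0.705 FPKM on MCD, and the cre value turned to 0.02. That scale, as log2(FPKM + 1), moved the median of all genes in cre livers by 0.27. Counted as opposite directions without overlap on the CPM scale, such a pattern was held by 0.593% of all genes. No test passed, with log2 fold changes of 0.78 ± 0.31 in flox (edgeR adjusted p = 0.184) and -0.28 ± 0.31 in cre livers (adjusted p = 0.625). On the control diet cre livers were above flox livers by 1.0045 ± 0.32 on the log2 scale (adjusted p = 0.645).

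As a share of the summed lipin FPKM, Lpin1 took 34.0%, 37.6% and 38.7% in flox control livers and 14.9%, 5.81% and 9.28% in flox MCD livers. In cre livers its share was 28.5%, 15.01% and 37.3% on the control diet and 28.3%, 26.6% and 25.2% on MCD. The flox MCD livers had the lowest shares of all libraries. Lpin2 filled nearly all of the rest, with 84.4% to 93.2% in flox MCD and 61.0% to 65.5% in flox control livers, and Lpin3 stayed at 0.355% to 2.03% in all libraries. These shares are free of the scaling of a library and of the length of a gene.

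**Figure D3:**
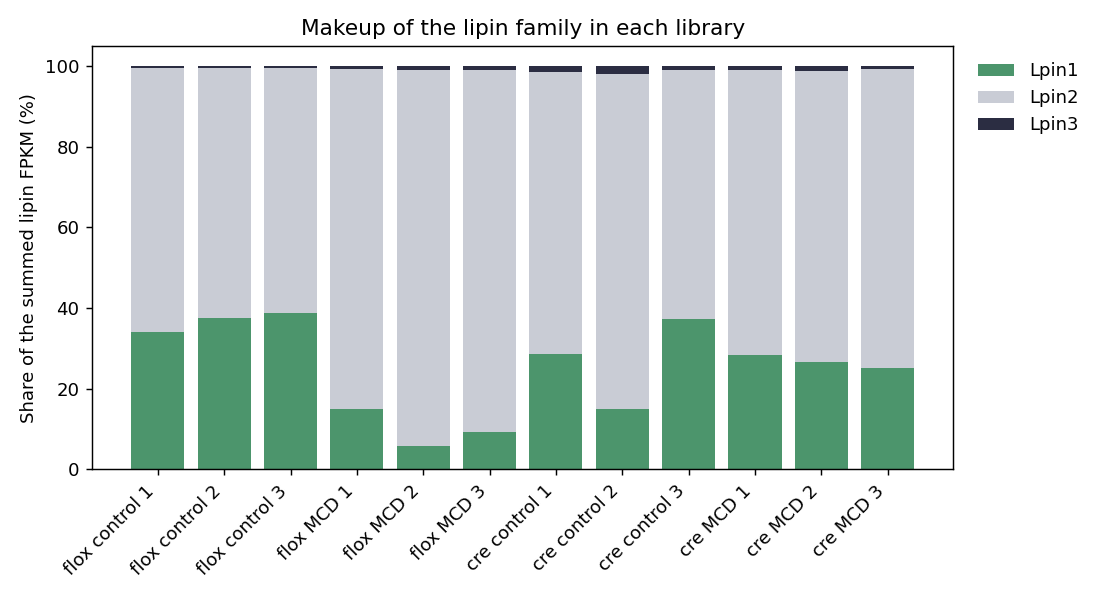
Share of the summed lipin FPKM (vertical axis, %) taken by Lpin1, Lpin2 and Lpin3 in each of the 12 libraries. Lpin1 takes 34.0% to 38.7% in the flox control libraries and 5.81% to 14.9% in the flox MCD libraries, with cre libraries between 15.01% and 37.3%.

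The Lpin1 row sums over transcripts that the submitters' quantification separated. The longer coding form, led by ENSMUST00000067124 with its start at 16589770, took 88.7% to 97.8% of the Lpin1 FPKM in flox control, 89.2% to 92.8% in cre control and 92.2% and 94.8% in cre MCD 1 and 2. In the flox MCD livers it took 58.7%, 18.7% and 98.0%. The shorter form, which lacks the exon printed above, took 38.4% in flox MCD 1 and 28.2% in the library labelled cre MCD 3, and 0.495% to 3.25% in each of the other 10 libraries. In flox MCD 2 most of the estimate, 75.2%, fell on ENSMUST00000239165, whose start at 16610966 is the one after the upstream window printed above and which took at most 0.366% in any other library. This transcript is also annotated as protein coding but has no CCDS entry, so it is counted in neither coding form. The form thus differed among livers of 1 group. The fall of the longer form in flox livers, from 18.3, 21.3 and 30.6 to 7.30, 1.02 and 6.26 FPKM, left no overlap between the diets. These are estimates from reads that the forms mostly share, and no count of reads over single junctions was used here.

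**Figure D4:**
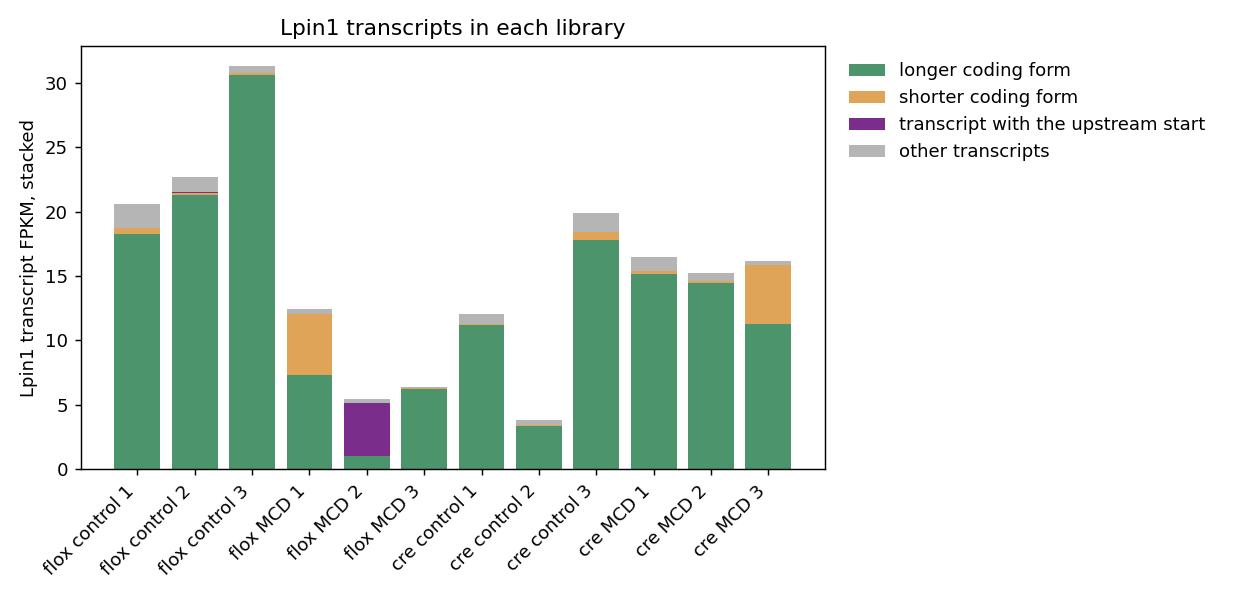
FPKM of the Lpin1 transcripts (vertical axis, stacked) in each library, divided into the longer coding form, the shorter coding form, the transcript with the upstream start and the others. The transcript with the upstream start is also annotated as coding, without a CCDS entry. The longer form is the main one in 11 libraries, and the upstream start is prominent in flox MCD 2 alone (75.2% of the Lpin1 FPKM there).

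The last step gave no call in any comparison. Dgat2 encodes the acyltransferase linked to newly made fatty acids, and Dgat1 encodes an unrelated enzyme of the endoplasmic reticulum that also esterifies fatty acids taken up from outside. Dgat2 (ENSMUSG00000030747, chromosome 7, 99153658 to 99182719) was at 158, 214 and 288 CPM in flox control, 188, 183 and 186 CPM in flox MCD, 182, 166 and 185 CPM in cre control and 191, 213 and 179 CPM in cre MCD livers. The highest and the lowest library were both flox controls, and the diets overlapped in both genotypes. The log2 fold change on MCD was -0.24 ± 0.21 in flox (edgeR adjusted p = 0.617) and 0.13 ± 0.21 in cre livers (adjusted p = 0.751). Without flox control 3 the flox value turned to 0.00 (0.0035, adjusted p = 0.994).

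Dgat1 (ENSMUSG00000022555, chromosome 15, 76502015 to 76511953) was at 12.8, 22.5 and 20.3 CPM in flox control, 17.9, 22.7 and 17.1 CPM in flox MCD, 20.7, 14.7 and 17.9 CPM in cre control and 18.2, 21.4 and 20.9 CPM in cre MCD livers. The groups overlapped in every comparison. Its diet values were 0.05 ± 0.22 in flox (edgeR adjusted p = 0.94) and 0.18 ± 0.22 in cre livers (adjusted p = 0.668), and the flox value turned to -0.16 without flox control 1 and to -0.08 without flox MCD 2. The coding transcript ENSMUST00000023214 took 27.5% to 92.1% of the Dgat1 FPKM, and transcripts with a retained intron took most of the rest, 1 of them up to 44.3%. Of the summed Dgat1 and Dgat2 FPKM, Dgat1 took 9.503% to 18.7%, with overlap between all groups.

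The monoacylglycerol route was barely measured. Mogat1 (ENSMUSG00000012187, chromosome 1, 78510991 to 78538173) had 4 to 77 estimated counts a library and levels of 0.119, 0.229 and 0.878 CPM in flox control and 0.400, 0.295 and 0.995 CPM in flox MCD livers. In cre livers it was at 1.49, 1.015 and 1.21 CPM on the control diet and 0.441, 0.770 and 0.284 CPM on MCD. On the CPM scale the cre control livers were above all other libraries, by 1.015 against 0.995 CPM at the closest. On the FPKM scale they overlapped every other group. They held 0.543 to 1.16 FPKM, where flox control reached 0.583, flox MCD 1.11 and cre MCD 0.754 FPKM. The log2 fold change was -1.31 ± 0.75 for the diet in cre livers (edgeR adjusted p = 0.302) and 1.58 ± 0.76 for cre against flox on the control diet (adjusted p = 0.705), so neither passed. The latter was 2.80 without flox control 3, also not called (adjusted p = 0.525). Mogat2 (ENSMUSG00000052396, chromosome 7, 99219084 to 99238619) had 0 to 60 estimated counts a library, with 0 in flox control 3, cre control 2 and cre control 3, and at most 1.001 CPM, in flox MCD 1. No fold change is given at these counts. Of 7 markers of enterocytes, the cell type best known for MOGAT activity, 4 or 5 had counts in each group, and Alpi and Cdx2 had none in any group. The 7 summed to 25.1 to 108 CPM in flox control, 124 to 169.7 CPM in flox MCD, 64.6 to 113.7 CPM in cre control and 128.5 to 222 CPM in cre MCD livers, higher on MCD without overlap, and 0 were called higher. The part of such cells in the Mogat2 counts was not tested.

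Between the genotypes no enzyme was called by edgeR, on MCD (beside 0.0121% of all genes), on the control diet (beside 0.0424%, 0.0182% higher) or averaged over diets (beside 0.0242%, 0.0182% higher). At an unadjusted p under 0.05 there were 2 of 10 on MCD beside 8.33% of all genes, 4 of 10 on the control diet beside 7.2%, and 1 of 10 averaged beside 7.01%. DESeq2 called 0 on MCD, 0 on the control diet and 1 averaged over diets, Lpin2, beside 168, 60 and 104 of all genes. Counting libraries without overlap, on MCD the cre livers were above the flox livers for 3 genes, Agpat2, Agpat3 and Lpin1, and below for Lpin2, where 17.6% of all genes did not overlap. On the control diet they were above for Lpin3 and Mogat1 and below for Gpam, Lpin1 and Lpin2, where 10.8% of all genes did not overlap. These counts are on the CPM scale. In FPKM the genotypes overlapped for Agpat2 and Agpat3 on MCD and for Gpam and Mogat1 on the control diet.

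Lpin1 was below the flox livers in cre livers on the control diet (-1.13 ± 0.42, edgeR adjusted p = 0.657) and above them on MCD (1.19 ± 0.42, adjusted p = 0.44). Such opposite directions without overlap were held by 0.902% of all genes. Gpam on the control diet was at -0.41 ± 0.18 (adjusted p = 0.688). Agpat2 on MCD was at 0.52 ± 0.28 (adjusted p = 0.679) and Agpat3 at 0.22 ± 0.20 (adjusted p = 0.862), the latter turning to -0.10 on the FPKM scale. That scale, as log2(FPKM + 1), moved the median of all genes by -0.15 for cre against flox on MCD. The diet effects of the genotypes differed for 0 of 10 genes by edgeR beside 0.00605% of all genes, for 2 of 10 at an unadjusted p under 0.05 beside 8.98%, and for Lpin1 alone by DESeq2. For this difference the alternative fits called 0 to 95 of all genes.

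The surroundings of the pathway were read from 22 further genes: the supply of glycerol phosphate, other acyltransferases, other phosphatases and the transcriptional regulators. In flox livers 2 of the 22 were called higher on MCD and 1 lower, beside 5.27% of all genes called. In cre livers 4 were called higher and 2 lower, beside 6.77%. Averaged over genotypes 5 were called higher and 2 lower, beside 14.9%, and edgeR called 0 of 22 between genotypes or between the diet effects of the genotypes (3 on MCD, 2 on the control diet, 3 averaged and 3 for the difference at an unadjusted p under 0.05, beside 8.33%, 7.2%, 7.01% and 8.98% of all genes, while DESeq2 called 0, 0, 0 and 1). Over all genes DESeq2 called 168, 60 and 104 between the genotypes in the same order, and the alternative fits called 0 to 95 for the difference. The median log2 fold change of the 22 on MCD was 0.20 in flox and 0.29 in cre livers, beside 0.01 and -0.01 for all genes.

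Among the 7 regulators, Pparg rose in both genotypes and Srebf1 fell in flox livers. Pparg encodes a nuclear receptor that promotes fat storage and is low in lean liver. It was at 3.68, 3.48 and 6.06 CPM in flox control and 13.3, 11.9 and 14.7 CPM in flox MCD livers, and at 5.27, 4.87 and 6.39 CPM in cre control and 9.93, 12.7 and 11.4 CPM in cre MCD livers. The diets did not overlap in either genotype. The log2 fold change was 1.59 ± 0.24 in flox (edgeR adjusted p = 0.0017) and 1.04 ± 0.24 in cre livers (adjusted p = 0.0204), and the cre call held in 8 of the 12 fits without 1 library, being lost in turn without cre control 1, cre control 2, cre MCD 2 and the library with cre MCD 3 as its label (0.96 to 1.04, adjusted p of 0.0541 to 0.0947). Of 8 adipocyte markers 3 to 5 had counts in each group, Lep and Retn had none in any group, and 1 was called higher on MCD in each genotype. The list summed to 5.83 to 9.71 CPM in flox control, 10.3 to 13.8 CPM in flox MCD, 7.07 to 8.15 CPM in cre control and 8.53 to 10.4 CPM in cre MCD livers, also without overlap of the diets. Its part in the Pparg values was not tested.

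Srebf1, which encodes the lipogenic factor SREBP-1, was at 39.96, 43.1 and 23.6 CPM in flox control and at 10.2, 13.5 and 15.4 CPM in flox MCD livers. Every MCD library was below every control library. It fell by 1.45 on the log2 scale (SE 0.32, edgeR adjusted p = 0.0189). Leaving out either of flox control 1 and 2, or either of flox MCD 1 and 2, ended the call (adjusted p up to 0.0971), as did the FPKM scale (-0.68 with log2(FPKM + 1), adjusted p = 0.081). In cre livers its value was -0.89 ± 0.32 (adjusted p = 0.105), and averaged over genotypes -1.17 ± 0.23 (adjusted p = 0.00394). Mlxipl, which encodes the carbohydrate-responsive factor ChREBP, fell on average by 1.38 on the log2 scale (SE 0.33, adjusted p = 0.013). Within flox livers its value was -1.48 ± 0.46 (adjusted p = 0.0862), which passed without flox control 3 (-1.78, adjusted p = 0.037), without cre MCD 1 (adjusted p = 0.0233), without the one whose label is cre MCD 3 (adjusted p = 0.0376) and without both libraries that stood apart (adjusted p = 0.0083). Within cre livers it was -1.28 ± 0.46 (adjusted p = 0.109), which passed without cre MCD 1 (-2.06, adjusted p = 0.0105). With log2(FPKM + 1) and no filter neither average passed (adjusted p = 0.0732 for Srebf1 and 0.065 for Mlxipl). This fit moved the median of all genes upward by 0.34 on average. With its filter log2(FPKM + 1) moved it by 0.44 in flox livers.

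The other acyltransferases moved in both directions. Gpat3, an enzyme of the first step in the endoplasmic reticulum, was at 12.1, 10.9 and 25.6 CPM in flox control, 26.6, 38.0 and 31.6 CPM in flox MCD, 11.8, 10.4 and 8.96 CPM in cre control and 17.4, 24.4 and 30.3 CPM in cre MCD livers. Both genotypes were higher on MCD without overlap. Averaged it rose by 1.10 ± 0.22 (SE, edgeR adjusted p = 0.00477), and in cre livers by 1.21 ± 0.31 (adjusted p = 0.035). In flox livers the value was 0.98 ± 0.31 (adjusted p = 0.0868), and without flox control 3, the highest flox control, it was 1.48 and passed (adjusted p = 0.00599). It also passed by DESeq2 (adjusted p = 0.0346) and on the FPKM scale (1.37 with log2(FPKM + 1), adjusted p = 0.0124). That scale moved the median of all genes in flox livers by 0.44 in the same direction. The cre call was lost when any 1 of 6 libraries was left out, the 3 cre controls, flox MCD 3, cre MCD 2 and the library labelled cre MCD 3 (adjusted p up to 0.129). Agpat5, a mitochondrial lysophosphatidate acyltransferase, rose by 0.48 ± 0.13 on average (adjusted p = 0.029), a call that held in 5 of the 12 fits without 1 library (adjusted p up to 0.0746).

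In cre livers 2 acyltransferases were called lower, Agpat1 and Gpat2. Agpat1, of the same step as Agpat2 and Agpat3, was at 14.2, 12.98 and 11.7 CPM in cre control and 9.30, 6.16 and 5.61 CPM in cre MCD livers, a log2 fold change of -0.89 ± 0.24 (edgeR adjusted p = 0.0438). In flox livers it was at 8.30, 10.01 and 5.71 CPM on the control diet and 11.4, 11.9 and 11.9 CPM on MCD, 0.55 ± 0.24 (adjusted p = 0.228). The direction was opposite in the genotypes, without overlap. Gpat2, at 2.34, 2.75 and 1.67 CPM in cre control and 0.510, 0.953 and 0.805 CPM in cre MCD livers, was at -1.57 ± 0.44 (adjusted p = 0.0491). Of the fits without 1 library the Agpat1 call held in 4 of 12, those without flox control 1, 2 or 3 or cre MCD 1, and the Gpat2 call in 2 of 12, those without flox control 2 or 3, and both were lost without the library that carries the label cre MCD 3 (adjusted p of 0.159 and 0.127). Both were also lost with no filter (0.0543 and 0.0676), in a fit of the cre libraries alone (0.0565 and 0.0545) and with log2(FPKM + 1), where the values were -0.40 (adjusted p = 0.176) and -0.34 (adjusted p = 0.121). Gpat2 was lost with limma voom too (0.0774) and without the ribosomal and mitochondrial rows (0.0514), and Agpat1 without both libraries that stood apart (0.0666). The log2(FPKM + 1) scale moved the median of all genes in cre livers upward by 0.27.

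Of the 5 other phosphatase genes, Plpp1 and Plpp2 were called. They encode lipid phosphate phosphatases, which act on phosphatidate and lysophosphatidate largely at the cell surface. Plpp2 was at 9.52, 12.99 and 16.9 CPM in flox control, 27.8, 21.8 and 26.97 CPM in flox MCD, 10.4, 14.6 and 14.2 CPM in cre control and 22.9, 33.7 and 37.6 CPM in cre MCD livers. All MCD libraries were above all control libraries. Its log2 fold change was 0.96 ± 0.25 in flox (edgeR adjusted p = 0.0408), 1.27 ± 0.25 in cre (adjusted p = 0.0105) and 1.11 ± 0.18 on average (adjusted p = 0.00107), and the flox call held in 4 of the 12 fits without 1 library, those that omit flox control 3, cre control 1, cre MCD 1 and the library with cre MCD 3 as its label (adjusted p up to 0.139). Leaving out cre control 1 or cre MCD 2 ended the cre call (adjusted p up to 0.0519). Plpp1 rose by 1.21 ± 0.22 in cre livers (adjusted p = 0.00653) and by 0.84 ± 0.15 on average (adjusted p = 0.00269). In the supply of glycerol phosphate (Gpd1, Gpd1l and Gk, the dehydrogenases and the glycerol kinase) 0 of 3 were called by edgeR in a diet comparison. All 3 had positive values, such as 0.47 ± 0.27 in flox and 0.52 ± 0.27 in cre livers for Gpd1 (adjusted p of 0.389 and 0.245). Without both libraries that stood apart, Gpd1 (0.84, adjusted p = 0.0316) and Gk (1.17, adjusted p = 0.0156) were called in flox livers. Averaged over genotypes Gpd1 was at 0.50 ± 0.19 (adjusted p = 0.093) and Gk at 0.63 ± 0.26 (adjusted p = 0.12). Both averages passed without flox control 3 (0.68, adjusted p = 0.00808, and 0.79, adjusted p = 0.0475), and DESeq2 called that of Gpd1 (adjusted p = 0.0499).

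**Figure D5:**
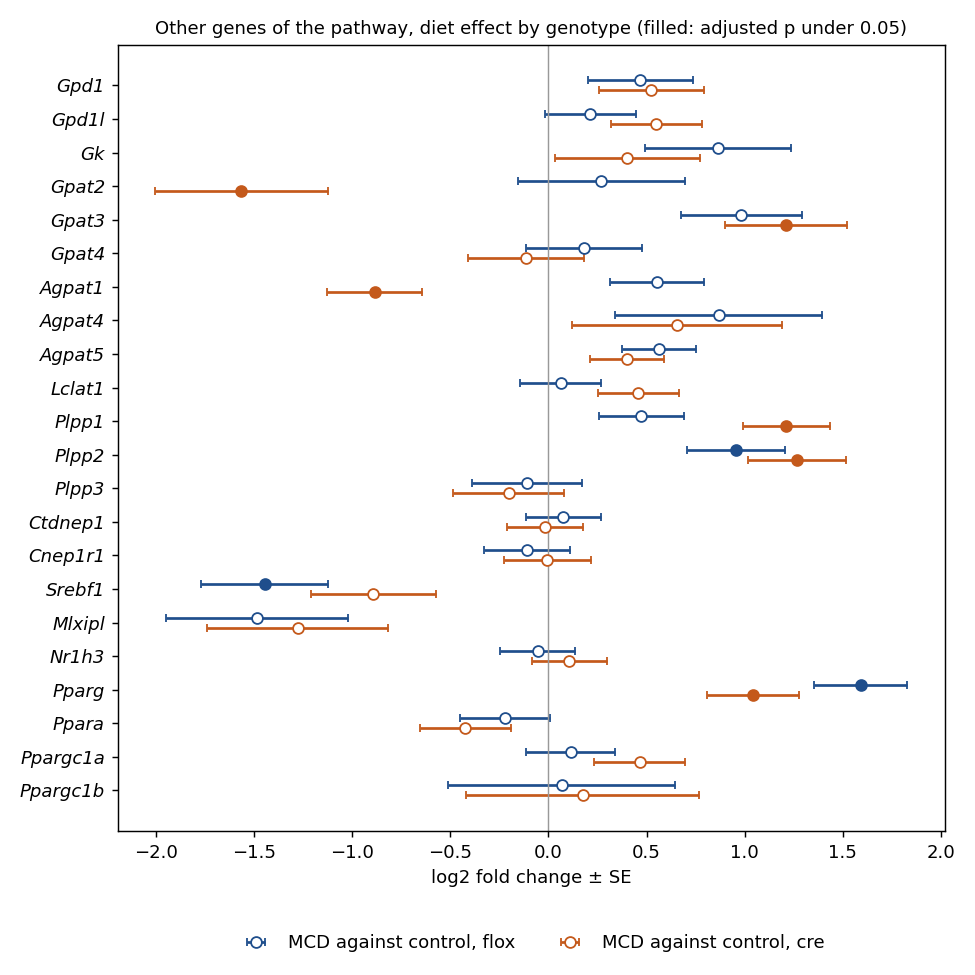
Log2 fold change for MCD against control diet (horizontal axis, ± SE) of the 22 other genes of the pathway in flox (blue) and cre (orange) livers, with filled points where edgeR's adjusted p was under 0.05. On the higher side Pparg and Plpp2 are filled in both genotypes and Plpp1 and Gpat3 in cre livers. On the lower side Srebf1 is filled in flox livers and Agpat1 and Gpat2 in cre livers.

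Across the 12 libraries the genes whose log2(CPM + 1) was most like that of the 3 called enzymes were sought among 8093 genes with a mean of at least 5 CPM. For Lpin1 they were Arhgef26 (Pearson r = 0.964), Slc45a3 (r = 0.857) and Cyb5d2 (r = 0.856), of which Arhgef26 and Slc45a3 also fell in flox livers (-1.19, edgeR adjusted p = 0.0121, and -0.93, adjusted p = 0.0197). For Agpat3 they were Camk1 (r = 0.977), Ndufa8 (r = 0.974) and Ppif (r = 0.969), and for Gpam Myo5b (r = 0.93), Septin9 (r = 0.926) and Gmfb (r = 0.92). These correlations run over libraries that share their groups and their scaling, and describe these libraries only. Arhgef26 and Slc45a3 were picked for their likeness to Lpin1 in these libraries, so their falls are no separate support for that of Lpin1.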

How the data were processed

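Poly(A) RNA from 12 livers was made into libraries with a SMARTER kit, per the labels' protocols. Per the submitters' processing notes, cutadapt, FastQC, HISAT2, StringTie and edgeR were used with mm10, and versions are not given in the sources used here. The deposited gene counts are estimated counts: for 98.2% to 99.1% of the transcripts above 0 in a library the count is FPKM multiplied by length and by 1 factor per library, rounded up, and each gene's count sums its transcripts. The deposited FPKM values were scaled by the authors for length and depth, a unit read from this relation. Estimates can shift counts between forms and overlapping genes.

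Counts were tested in R 4.3.3 with edgeR 4.0.16 (filterByExpr, TMM, glmQLFit and glmQLFTest, 2-sided, 1 fit of 12 libraries with a mean per group), with Benjamini-Hochberg adjustment over 16523 genes, for 7 comparisons. SEs were computed as the absolute log2 fold change divided by the root of F. For a single gene 3 against 3 livers allow no exact permutation p under 0.1, so p-values come from the fit across all genes. Alternatives were DESeq2 1.42.0 and its size factors, limma voom 3.58.1, other filters, the replicate block, log2(FPKM + 1) and log2(FPKM + 0.1) in limma, a log2 fold change of at least 1, and fits without 1 or both doubtful libraries. The text names all 10 enzymes, Lpcat3, called pathway genes or the Gpd1 values where none was called, and the 3 nearest genes of each called enzyme; Gpat4 and Gk were named after their values were seen. The enzymes, lists and tests were chosen with earlier results of these data known. Transcripts and exons come from GENCODE vM21 and promoters from RefSeq. Protein sequences were not used here.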

Additional observations from a re-analysis of the deposited data

Results flagged for a closer look

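For Lpin1 every cre liver was below every flox liver on the control diet (-1.13) and above every flox liver on MCD (1.19). The effects differed by 2.32, which edgeR did not call (adjusted p = 0.361, 0.143 to 0.711 without 1 library) and DESeq2 called (adjusted p = 0.0166). For Lpin3 the flox livers on MCD were all above the flox control livers and the cre livers on MCD all below the cre control livers, a difference of -1.07 (edgeR adjusted p = 0.524) at 1.12 to 3.01 CPM. The cre separation rests on 2.67635 against 2.67628 CPM and is gone on the FPKM scale, where the cre value is 0.0166. For Agpat1 the MCD livers were all above the control livers in flox and all below them in cre, and cre livers were above flox livers on the control diet and below them on MCD, a difference of -1.44 (edgeR adjusted p = 0.323, DESeq2 among the other fits down to 0.0396).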

How the results depend on the processing

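Of the 10 enzymes the main test called 1 on MCD in flox livers. This became 2 with DESeq2, 5 with log2(FPKM + 1) or log2(FPKM + 0.1), and 4 with log2(FPKM + 1) and no filter. It was 2 without both libraries that stood apart, and 1 to 2 without 1 library. In cre livers 0 became 2 with DESeq2 and 1 with DESeq2's size factors, a filter at 1 CPM in 3 libraries, the replicate block, only the libraries compared, log2(FPKM + 1), log2(FPKM + 0.1) or without both libraries, and 0 to 1 without 1 library. Averaged over genotypes 3 became 5 with log2(FPKM + 1) or log2(FPKM + 0.1), 1 with a log2 fold change of at least 1, and 1 to 4 without 1 library. DESeq2 raised 0 to 1 for cre against flox averaged over diets, and likewise for the interaction of diet and genotype. The FPKM scale moved the median of all genes by 0.44 in flox, 0.27 in cre, 0.36 on average, -0.15 for cre against flox on MCD and -0.19 for the interaction (log2(FPKM + 1)). Some values changed sign under log2(FPKM + 1), log2(FPKM + 0.1) and the former with no filter: Agpat2 in flox 0.5101, 0.5204 and 0.5101, Dgat2 in flox 0.3315, 0.3372 and 0.3315, Lpin3 in cre 0.0166, 0.0318 and 0.0166, and Agpat3 for cre against flox on MCD -0.0980, -0.1003 and -0.0980. Without both libraries that stood apart Agpat2 (0.3316), Dgat2 (0.0033) and Gpat2 (-0.0673) in flox changed sign. Without 1 library the flox values ran from -0.3511 to 0.3319 for Agpat2, -0.1625 to 0.2033 for Dgat1, -0.4411 to 0.0035 for Dgat2 and -0.0668 to 0.6926 for Gpat2, and in cre from -0.3019 to 0.6943 for Lpin1. The cause was not tested. Over all genes the calls on MCD in flox, 871, ran from 425 to 2528, in cre, 1118, from 319 to 2195, and on average, 2470, from 1162 to 4857. For the diet these are not given setting by setting, so the counts of enzymes under each setting are no result about the enzymes. For the genotype DESeq2 called 168 genes on MCD, 60 on the control diet and 104 on average, where edgeR called 2, 7 and 4. For the interaction the alternative fits called 0 to 95 genes, where edgeR called 1. Replicate numbers were not taken to pair the livers, because not every same-numbered pair had a correlation over 0.1: of 18 same-numbered pairs 8 had correlated deviations over 0.1 (-0.043 to 0.517), and 8 of 12 libraries correlated best with their own number. With the replicate block 1 enzyme was called in flox, 1 in cre, 3 on average and 0 in the genotype and interaction comparisons. The block also called Mlxipl in flox (-1.36, adjusted p = 0.0155) and cre (-1.47, 0.00942), Gk in flox (0.91, 0.0474) and on average (0.61, 0.0271), and Gpd1 on average (0.52, 0.0206). Depth limits Mogat1 (at most 77 estimated counts a library) and Mogat2 (at most 60).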
